A study of Homo sapiens with 6 samples.

Results

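The data on 32 genes that are known as transcriptional targets or close partners of p53 were examined in A2780, a human ovarian cancer cell line, with and without recombinant human CRMP2 (r-CRMP2). The 32 genes were taken by name from the 44591 genes listed in each library. The untreated group held 3 libraries, and the r-CRMP2 group held 3 libraries of cells given 40 ng/ml of the protein in the culture medium for 48 h. All 6 libraries came from A2780 of a genotype labelled WT, and no vehicle is named for the untreated cells. The labels number the replicates but do not say that they were separate cultures, so the p-values measure only the spread between these libraries, which may be technical.

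p53 is a transcription factor that is stabilised after DNA damage and other stress. It binds a pair of short half-sites near its target genes, whose products stop the cell cycle, repair DNA, trigger cell death or, as MDM2 does, return p53 to a low level. Many of these genes are also regulated by other transcription factors, so their RNA levels are not a readout of p53 alone.

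The motif that defines p53 binding is shown first, because it can be read directly in the promoters of some members. RefSeq windows running from 250 bases before to 50 bases after a transcription start (GRCh38.p14) were at hand for 26 of the 32 genes, as 39 windows. Both strands were read for the p53 half-site consensus, which is its own reverse complement, and for pairs of half-sites at most 13 bases apart. A pair with at most 2 mismatches outside the core C and G, an allowance chosen after the exact matches had been counted, was present in 6 of the 39 windows (15.4%) and in 2.93% of all 35116 windows of the table. These pairs lay in 5 genes, since 2 overlapping windows of MDM2 held the same pair. With at most 1 mismatch the pair was in 1 of the 39 windows (2.56%) and in 0.4% of all windows. The genes were listed as known p53 targets, so a higher share among them is not a test. Capitals mark the half-sites and lower case the bases between them.
AEN: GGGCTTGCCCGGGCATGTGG
DDB2: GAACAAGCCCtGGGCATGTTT
FAS: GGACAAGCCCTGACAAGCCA
FDXR: GGGCGGGCCCgggcaggagcGGGCTTGCCC
MDM2: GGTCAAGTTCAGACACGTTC
The AEN pair is at chr15:88621306-88621325, the DDB2 pair at chr11:47214979-47214999, the FAS pair at chr10:88991309-88991328 and the MDM2 pair at chr12:68808923-68808942, all on the plus strand. The FDXR pair is at chr17:74872996-74873025 on the minus strand. The DDB2 pair had 0 mismatches and the other 4 had 2 each. Only 10 of all 35116 windows held a pair with 0 mismatches. A match describes the letters of a window and is not a measured binding site, and a window without one says nothing about binding elsewhere in the gene.

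The libraries held between 21888530 and 25711353 counts, and counts were put on a common scale as CPM with TMM factors. The libraries labelled r-CRMP2 listed fewer genes with a count, and r-CRMP2 replicate 3 was the lowest, with 22438 genes against 25152 to 26302 in the other 5. That library held the most counts, 25711353, and why it listed fewer genes was not tested. Scaling moved every fold change, since over all genes tested it had a median of -0.03 on the log2 scale with TMM and -0.34 with library size alone. Ovarian epithelial markers summed to between 3195 and 3271 CPM in the untreated libraries and to between 3207 and 3474 CPM in the r-CRMP2 libraries. The keratins KRT7, KRT8 and KRT18 were abundant, 7 of 10 of these markers were over 1 CPM in all 6 libraries, and WT1, CDH1 and ESR1 were not. Of 8 fibroblast markers 7 were over 1 CPM in all libraries, mostly through COL1A1, with sums of 537.3 to 614.7 CPM untreated and 457.4 to 476.7 CPM after r-CRMP2. Of 5 leukocyte markers 2 were over 1 CPM, and the 5 summed to between 23.7 and 28.1 CPM untreated and to between 73.6 and 80.4 CPM after r-CRMP2, nearly all of it CD68, while PTPRC and CD3E were near 0. The 3 endothelial markers summed to between 6.28 and 7.02 CPM untreated and to between 1.77 and 2.26 CPM after r-CRMP2. The part of these shifts in the results was not tested.

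The p53 targets moved in both directions after r-CRMP2. Of the 32 genes, 30 passed the filter on low counts, 12 were higher and 10 were lower at an adjusted p under 0.05 (edgeR's quasi-likelihood test, Benjamini-Hochberg over the 16222 genes tested), and 8 passed in neither direction. Across all genes tested, 28.2% were higher and 30.1% were lower by the same rule. On the log2 scale the 30 genes had a median of -0.01, against -0.03 over all genes. When a log2 fold change over 1 was required as well, GADD45B, BTG1 and CCNG2 were higher and TP53INP1 was lower, where 5.12% and 8.86% of all genes passed. The RNA came from bulk cells, so a change in the share of cells that express a gene and a change in RNA per cell cannot be told apart. Among the genes that passed, the groups overlapped in MDM4 and TP53I3. Overlap was not counted over all genes, so separate groups do not set these genes apart. When libraries were scaled by library size alone, 9 of the 30 were higher and 17 were lower, as the whole distribution moved down. With that scaling, 13.4% of all genes tested were higher and 52.1% were lower.

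**Figure D1:**
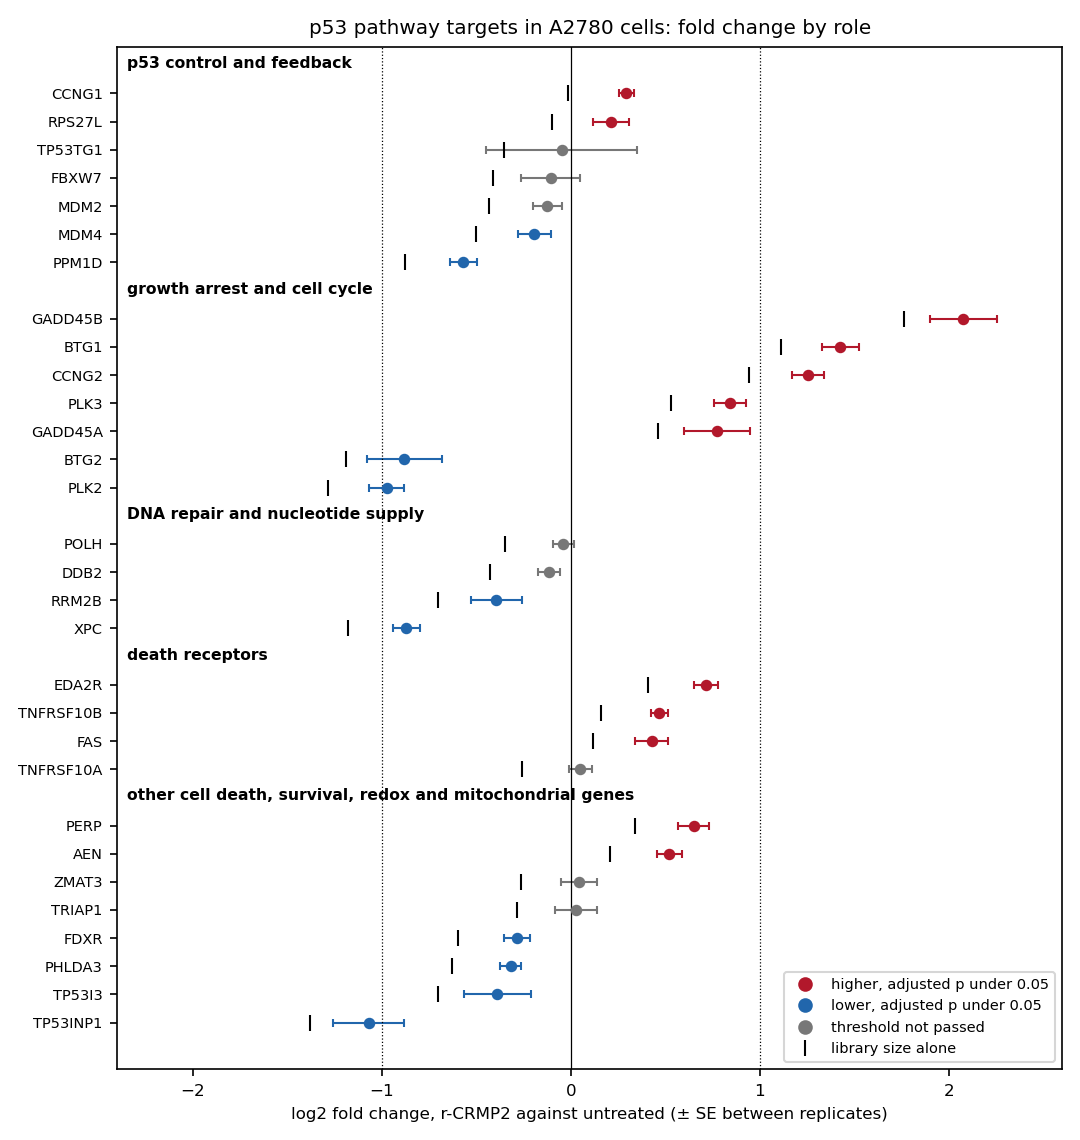
The log2 fold change of each tested gene (r-CRMP2 against untreated, TMM) is plotted by role, with bars of 1 standard error and colours for the 12 higher, 10 lower and 8 that passed in neither direction, and the short vertical ticks give the value with library size alone. The values run from -1.07 for TP53INP1 to 2.08 for GADD45B.

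The genes are given by role, and the roles hold 4 to 8 tested genes each, set beside the 28.2% higher and 30.1% lower over all genes, with no test between roles. Of the 8 genes of growth arrest and the cell cycle, 7 were tested, and 5 rose and 2 fell, with a median log2 fold change of 0.84. GADD45B (chromosome 19, 2476123 to 2478257 in hg19), a stress sensor that acts on MAP kinase signaling, stood at 15.8, 18.2 and 18.4 CPM without treatment and at 58.6, 85.5 and 76.8 CPM after r-CRMP2. Every r-CRMP2 library was above every untreated library by a wide margin. The rise was 4.22-fold (log2 2.08, standard error 0.18, adjusted p = 1.57e-11 from edgeR). Its relative GADD45A (chromosome 1, 68150860 to 68154021), which binds PCNA and CDK1 and is the member of this family best known as a p53 target, stood at 11.7, 15.1 and 16.6 CPM untreated and at 22.1, 27.4 and 24.8 CPM after r-CRMP2. The groups again did not overlap, and the rise was 1.71-fold (log2 0.77, standard error 0.17, adjusted p = 1.08e-05 from edgeR). GADD45G had 11 counts over all libraries and was not tested.

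BTG1 and BTG2 are related anti-proliferative proteins that recruit the CCR4-NOT deadenylase. BTG1 (chromosome 12, 92534054 to 92539673) stood at 167.4, 150.9 and 146.7 CPM untreated and at 377.3, 454.9 and 418.3 CPM after r-CRMP2, a 2.69-fold rise (log2 1.43, standard error 0.10, adjusted p = 1.13e-11 from edgeR). BTG2 (chromosome 1, 203274664 to 203278730) stood at 22.6, 29.2 and 33.5 CPM untreated and at 17.04, 13.3 and 15.9 CPM after r-CRMP2, a 1.84-fold fall (log2 -0.88, standard error 0.20, adjusted p = 5.30e-06 from edgeR). The groups did not overlap in either gene, and the pair moved in opposite directions.

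The polo-like kinases PLK2 and PLK3, which act in the stress response and at checkpoints, also moved apart. PLK2 (chromosome 5, 57749809 to 57755966) stood at 32.8, 29.7 and 35.3 CPM untreated and at 17.9, 16.5 and 15.4 CPM after r-CRMP2, a 1.97-fold fall (log2 -0.98, standard error 0.09, adjusted p = 2.67e-08 from edgeR). PLK3 (chromosome 1, 45265897 to 45271667) stood at 10.1, 11.0 and 10.1 CPM untreated and at 16.9, 19.0 and 20.1 CPM after r-CRMP2, a 1.79-fold rise (log2 0.84, standard error 0.08, adjusted p = 9.11e-07 from edgeR). Per kilobase of gene length, the level of PLK2 went from 11.5 to 5.85 CPM and that of PLK3 from 4.17 to 7.47 CPM, so their order turned. CCNG2 (chromosome 4, 78078357 to 78091213), an unusual cyclin that slows the cell cycle and is also a known FOXO target, stood at 41.7, 40.4 and 39.2 CPM untreated and at 88.8, 107.5 and 93.6 CPM after r-CRMP2. This was a 2.39-fold rise without overlap (log2 1.26, standard error 0.09, adjusted p = 6.70e-11 from edgeR), and the log2 value was 0.94 with library size alone.

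**Figure D2:**
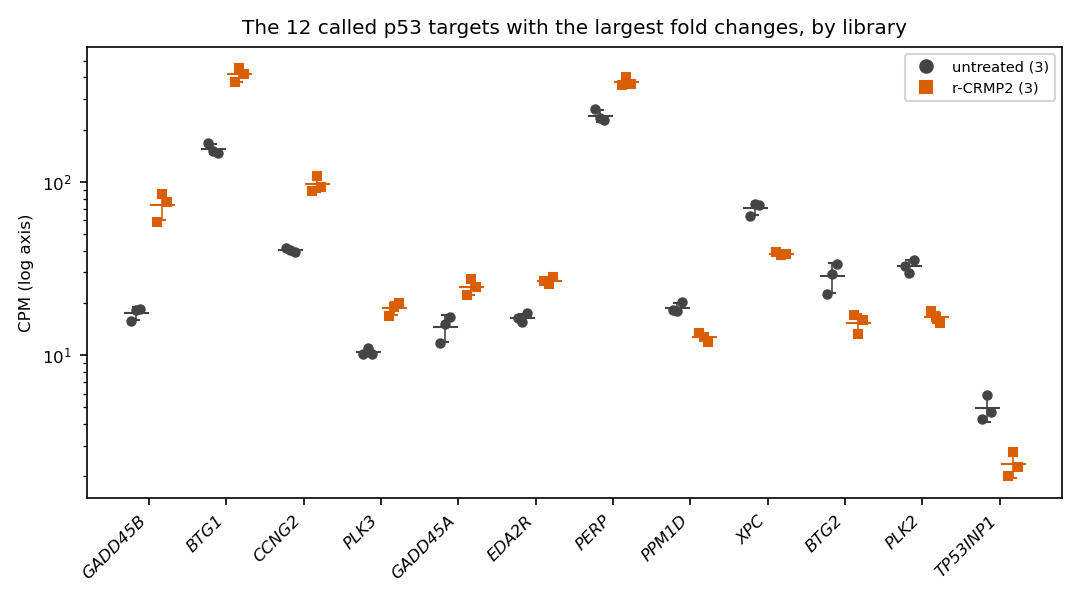
The CPM of the 12 members with the largest log2 fold changes among those that passed the test is plotted for each of the 6 libraries on a log axis, with a dash at the mean of each group of 3 and bars of 1 SD. The untreated and r-CRMP2 libraries are separate for each gene, with GADD45B between 15.8 and 18.4 CPM untreated and between 58.6 and 85.5 CPM after r-CRMP2.

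Because related genes often moved unequally, the ratio of their counts was taken within each library, which does not depend on the scaling. The 6 pairs of relatives were chosen after the fold changes were seen. The BTG1 to BTG2 ratio was 7.41, 5.17 and 4.38 without treatment and 22.1, 34.2 and 26.3 after r-CRMP2. The PLK3 to PLK2 ratio was 0.308, 0.370 and 0.287 untreated and 0.945, 1.15 and 1.30 after r-CRMP2. The GADD45B to GADD45A ratio was 1.34, 1.21 and 1.10 untreated and 2.65, 3.13 and 3.10 after r-CRMP2. In each of these pairs all 3 r-CRMP2 ratios were above all 3 untreated ratios. The same separation was seen for CCNG2 to CCNG1, with 0.309 to 0.325 untreated and 0.574 to 0.664 after r-CRMP2, and for TNFRSF10B to TNFRSF10A, with 9.22 to 10.6 untreated and 11.97 to 14.5 after r-CRMP2. For MDM2 to MDM4 the ratios overlapped, with 1.13 to 1.26 untreated and 1.21 to 1.33 after r-CRMP2. The two-sided exact permutation p was 0.1 for the 5 separate pairs, which is the smallest that 3 against 3 libraries allow, and 0.4 for MDM2 to MDM4 (0.12 and 0.4 after Benjamini-Hochberg adjustment over the 6 pairs).

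**Figure D3:**
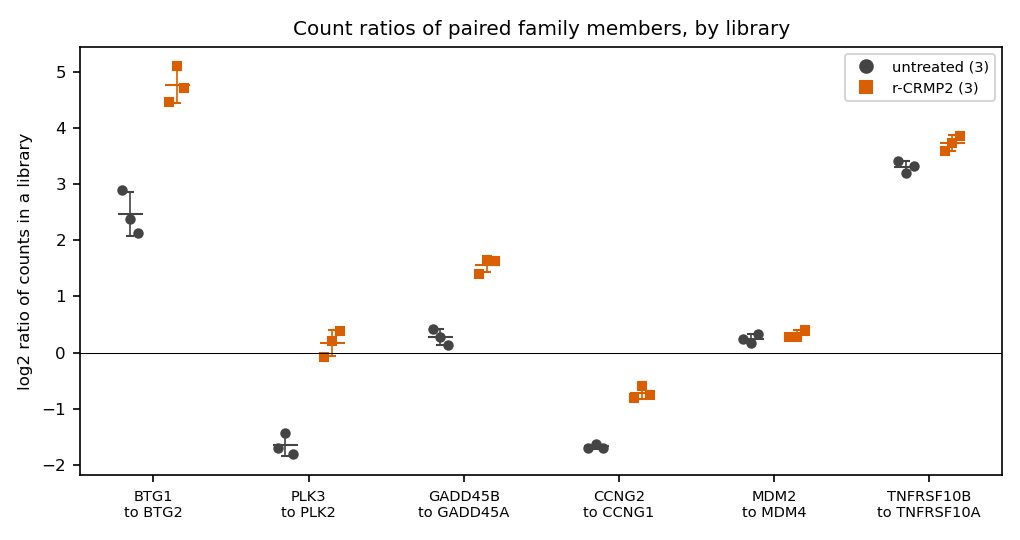
The log2 ratio of the counts of 2 related genes within each library is plotted for 6 pairs, untreated beside r-CRMP2, with a dash at the mean of 3 libraries and bars of 1 SD. In 5 pairs the 3 r-CRMP2 ratios lie above the 3 untreated ratios, and in MDM2 to MDM4 the groups overlap.

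The genes that control p53 itself ran from -0.57 to 0.29 on the log2 scale, beside -0.98 to 2.08 for those of growth arrest and the cell cycle. Of the 7, all tested, 2 rose, 2 fell and 3 passed in neither direction. MDM2 (chromosome 12, 69201952 to 69239324), the ubiquitin ligase that degrades p53 and is itself a p53 target, stood at 50.9, 49.6 and 50.1 CPM untreated and at 49.5, 41.5 and 47.2 CPM after r-CRMP2. The r-CRMP2 libraries were slightly lower without overlap, but the log2 difference of -0.12 (standard error 0.08) did not pass the test (adjusted p = 0.163 from edgeR). Its partner MDM4 differed by -0.19 on the log2 scale (adjusted p = 0.0434 from edgeR), which did not pass in 8 of 13 alternatives. The phosphatase PPM1D (WIP1), which switches the damage response off, fell from 18.2, 18.0 and 20.2 CPM to 13.4, 12.7 and 11.97 CPM, a 1.48-fold fall (log2 -0.57, standard error 0.07, adjusted p = 4.91e-05 from edgeR). CCNG1, a cyclin that works with MDM2, rose from 128.8 ± 5.53 to 158.0 ± 3.66 CPM (SD, n = 3 each), and RPS27L, a ribosomal protein relative linked to MDM2, from 43.2 ± 1.16 to 50.1 ± 5.68 CPM (SD, n = 3 each). The adjusted p from edgeR was 0.000382 for CCNG1 and 0.0284 for RPS27L. With library size alone both turned, to a log2 fold change of -0.02 for CCNG1 and -0.10 for RPS27L, neither of which passed. RPS27L also lost its call in 3 of the 6 fits that left out a library, and it is a close relative of RPS27, with which any sharing of reads was not tested. FBXW7 (log2 fold change -0.11) and the noncoding RNA TP53TG1 (-0.05, 66 counts in all) did not pass, while with library size alone MDM2 (-0.43) and FBXW7 (-0.41) were lower.

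Of 4 genes of DNA repair and nucleotide supply, 2 fell and none rose, beside 30.1% of all genes lower. XPC (chromosome 3, 14186647 to 14220172), which recognises helix-distorting lesions at the start of nucleotide excision repair, stood at 63.4, 74.1 and 73.0 CPM untreated and at 39.1, 37.6 and 38.5 CPM after r-CRMP2. The fall was 1.83-fold without overlap (log2 -0.87, standard error 0.07, adjusted p = 8.48e-09 from edgeR). RRM2B, the p53-induced subunit of ribonucleotide reductase, fell from 25.2 ± 1.48 to 19.2 ± 2.91 CPM (SD, n = 3 each), with a log2 fold change of -0.39. DDB2, the damage sensor of the same repair pathway as XPC and the gene with the exact p53 pair printed above, differed by -0.12 on the log2 scale (standard error 0.06, adjusted p = 0.161 from edgeR). The translesion polymerase POLH had -0.04 and did not pass either. DDB2 and POLH were lower with library size alone, at -0.43 and -0.35.

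Of 4 members that encode receptors of the TNF receptor family, 3 rose and none fell, beside 28.2% of all genes higher. EDA2R (chromosome X, 65815479 to 65859140), a receptor of the TNF receptor family, rose from 16.3, 15.4 and 17.4 CPM to 26.6, 25.8 and 28.4 CPM, 1.64-fold without overlap (log2 0.72, standard error 0.06, adjusted p = 7.82e-07 from edgeR). TNFRSF10B, the TRAIL receptor DR5, rose from 128.4 ± 2.55 to 177.7 ± 9.17 CPM (SD, n = 3 each), with a log2 fold change of 0.47. FAS rose from 28.3 ± 2.71 to 38.2 ± 1.45 CPM (SD, n = 3 each), with a log2 fold change of 0.43 that was 0.12 and did not pass with library size alone. FAS overlaps ACTA2 by 839 bases on the opposite strand, and whether the counting used strand is not given in the sources used here. TNFRSF10A, the TRAIL receptor DR4, had 0.05 and did not pass, and it was lower, at -0.26, with library size alone.

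The remaining genes of cell death, survival, redox and mitochondrial function were mixed. Of 9 listed, 8 were tested, and 2 rose, 4 fell and 2 passed in neither direction. PERP (chromosome 6, 138409642 to 138428660), a membrane protein of desmosomes and p53-dependent apoptosis, rose from 261.5, 232.6 and 225.6 CPM to 361.6, 402.6 and 366.3 CPM, 1.57-fold without overlap (log2 0.65, standard error 0.08, adjusted p = 1.59e-07 from edgeR). AEN (chromosome 15, 89164527 to 89175512), an apoptosis-enhancing nuclease, rose from 48.3, 51.0 and 52.8 CPM to 68.4, 78.2 and 71.8 CPM, 1.44-fold without overlap (log2 0.52, standard error 0.07, adjusted p = 3.17e-06 from edgeR). TP53INP1 (chromosome 8, 95938200 to 95961615), a stress-induced protein of p53 activation and autophagy, stood at 4.28, 5.87 and 4.68 CPM untreated and at 2.01, 2.78 and 2.26 CPM after r-CRMP2. The groups did not overlap and the fall was 2.10-fold (log2 -1.07, standard error 0.19, adjusted p = 9.62e-05 from edgeR), close to the threshold of 1 on the log2 scale: without untreated replicate 2 it was -0.93, and without r-CRMP2 replicate 1 it was -0.97. Smaller falls were measured in PHLDA3, an inhibitor of AKT (-0.32), in FDXR, the mitochondrial ferredoxin reductase (-0.29), and in TP53I3, an oxidoreductase (-0.39), on the log2 scale. TP53I3 lost its call in 4 and FDXR in 2 of the 6 fits that left out a library. TRIAP1 (0.03) and ZMAT3 (0.04) did not pass, and both were lower with library size alone, at -0.29 and -0.26. SPATA18 had 19 counts over all libraries and was not tested.

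Some other members also overlap genes listed beside them in the deposited coordinates, among them MDM2, POLH, XPC, TNFRSF10B and TP53I3. Any sharing of reads was not tested for them either, and the extent of overlap differs. RHOBTB2 overlaps TNFRSF10B by 65 bases. FAM228B overlaps TP53I3 by 7783 bases but had only 25 counts untreated and 10 after r-CRMP2.

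Set beside the printed promoter pairs, AEN and FAS rose, FDXR fell, and DDB2 and MDM2 did not pass, so the 5 genes with such a pair moved in no common direction.

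Levels were compared between genes as CPM per kilobase of deposited gene length. In untreated cells PERP was highest, at 55.8 ± 4.42 CPM per kilobase (SD, n = 3), and CCNG1 second, at 52.2 ± 2.24 CPM per kilobase (SD, n = 3), a gap smaller than the sum of their SDs. RPS27L, BTG1, DDB2 and TNFRSF10B followed at 39.9, 33.1, 31.7 and 30.9 CPM per kilobase, of which the last 3 lay within their spread of one another. After r-CRMP2, BTG1 stood at 89.1 and PERP at 87.6 CPM per kilobase, ahead of CCNG1 at 64.0. PLK3 moved from rank 26 to rank 16, EDA2R from 24 to 17, GADD45B from 10 to 4, and CCNG2 from 17 to 11. PLK2 moved from rank 11 to rank 21, BTG2 from 13 to 22, and XPC from 8 to 12.

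**Figure D4:**
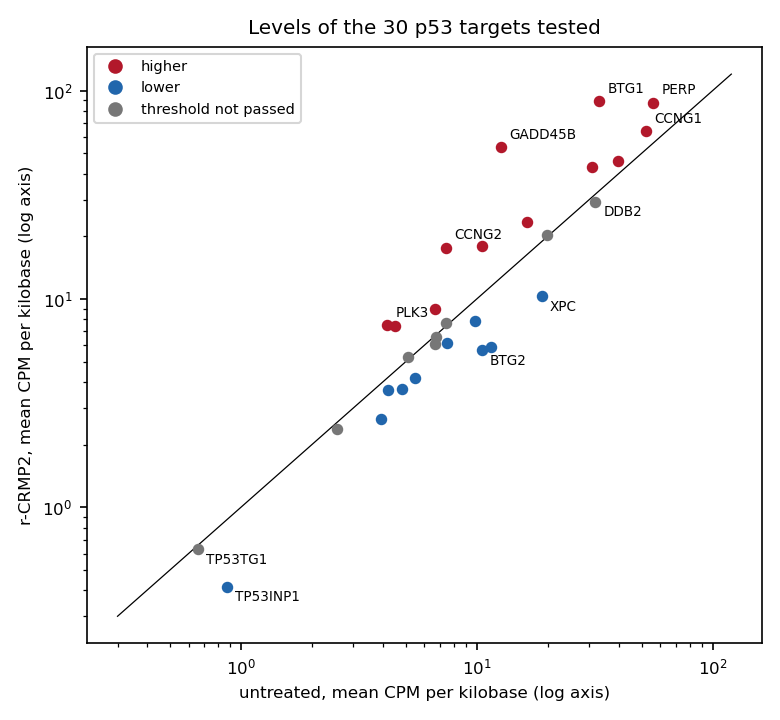
The mean CPM per kilobase of each tested gene after r-CRMP2 is plotted against that in untreated cells on log axes, with a line of equal levels and colours for higher, lower and not passed. GADD45B lies farthest above the line and TP53INP1 farthest below it.

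The wider pathway, given by a list of 40 other p53 targets, was mixed as well. Of these 37 were tested, 17 were higher, 11 were lower and 9 passed in neither direction, with a median log2 fold change of 0.11. Over all genes tested, 28.2% were higher and 30.1% were lower. Past both thresholds, 4 of the 37 were higher and 4 were lower, beside 5.12% and 8.86% of all genes. CDKN1A, the CDK inhibitor p21, rose from 77.8 ± 1.66 to 154.6 ± 14.9 CPM (SD, n = 3 each), or by 0.99 on the log2 scale (adjusted p = 8.39e-10 from edgeR). PRDM1, a transcriptional repressor, rose by 1.99 on the log2 scale. GLS2, a mitochondrial glutaminase, had a log2 fold change of -2.52 on low counts, 197 in all. Its mean went from 2.17 CPM untreated to 0.37 CPM after r-CRMP2. TIGAR, a regulator of glycolysis, had a log2 fold change of -1.70, and CES2, a carboxylesterase, -1.39.

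**Figure D5:**
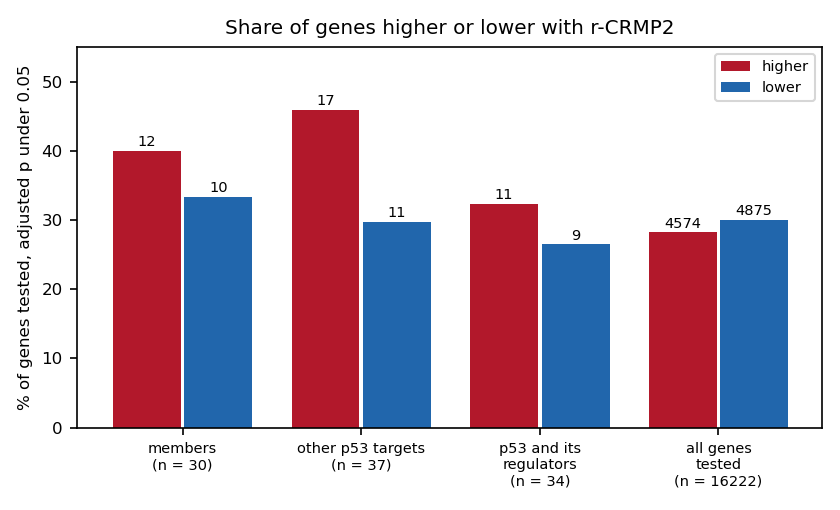
The percentage of tested genes that were higher and lower at an adjusted p under 0.05 is plotted as bars from 0 for the members, for other p53 targets, for p53 and its regulators and for all 16222 genes, with the number of genes above each bar. The members had 12 higher and 10 lower of 30, the other targets 17 and 11 of 37, the regulators 11 and 9 of 34, and all genes 28.2% and 30.1%.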

How the data were processed

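Polyadenylated RNA of 6 A2780 libraries was sequenced. Per the labels, the authors' processing notes name FastQC, HISAT2, DESeq2 and hg19; the counting tool, annotation and use of strand are not given in the sources used here. The authors deposited raw counts per gene, used here, and TPM values, which served as a check and followed from counts and lengths. In the tables, 27 gene names had become dates.

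Groups were compared by the quasi-likelihood test of edgeR 4.0.16 (run in R 4.3.3 with limma 3.58.1), over 16222 genes that passed its low-count filter, with TMM scaling. The thresholds were an adjusted p of 0.05 (Benjamini-Hochberg) and, where stated, a log2 fold change of 1. CPM used TMM-scaled library sizes, and a standard error was taken from the replicates' spread in log2 CPM (prior count 2). Depth was 21888530 to 25711353 counts per library. The test was checked on simulated counts. Ratios were tested by exact permutation (SciPy 1.17.1).

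Alternatives were RLE, library size alone, centring, no filter, at least 10 counts in every library, DESeq2 1.42.0, the replicate block and leaving out each library. The members and lists were chosen with earlier results of these data known. Values in every library are given for members past both thresholds and for the 12 largest changes among those that passed the test, and for a few others. From the other lists, at most 5 genes past both thresholds are named in the report, with CDKN1A. A few genes that meet the rule are not reported here. Gene coordinates are as deposited, and promoter coordinates are GRCh38.p14 from RefSeq.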

Additional observations from a re-analysis of the deposited data

How the results depend on the processing

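Of the 30 tested members, 17 kept their side of the threshold in every alternative that tested them. All of these kept their direction as well except TP53TG1, tested in 12 of the 13 alternatives. Its log2 fold change ran from -0.35 to 0.22 and never passed. Library size alone moved most: 17 members were lower in place of 10 and 4 in place of 1 past both thresholds, 2171 genes in all were higher and 8449 lower in place of 4574 and 4875 (20.4% against 48.4% of calls higher), and the members' median log2 fold change was -0.32 in place of -0.01. CCNG1 (-0.0162), RPS27L (-0.10), TNFRSF10A (-0.26), TRIAP1 (-0.29), ZMAT3 (-0.26) and the regulator CHEK2 (-0.0351) turned to a negative log2 fold change there. This scaling moves all genes by the same amounts in each library. Leaving out 1 library gave 1 to 2 members lower past both thresholds. BTG2 (-1.02) joined without untreated replicate 1, and PLK2 (-1.04 and -1.03) took the place of TP53INP1 without untreated replicate 2 and without r-CRMP2 replicate 1. Members lower at the adjusted p threshold numbered 7 without untreated replicate 2 and 7 without r-CRMP2 replicate 3, as MDM4, TP53I3 and FDXR did not pass; the cause was not tested. With the replicate block, 12 members were higher and 10 lower, and no member changed its call. Same-numbered libraries had correlations of deviations of -0.02, 0.0038 and -0.03, so no pairing by number was seen. With 3 libraries a group this cannot show how they were prepared, and the labels do not say. With 3 libraries a group, small changes such as that of MDM2 are limited by the spread between libraries, and low counts limit TP53TG1.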

Other observations

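Among 34 tested genes of p53 and its regulators, 11 were higher, 9 lower and 14 passed in neither direction, with a median log2 fold change of 0.03. Over all genes tested, 28.2% were higher and 30.1% were lower. None of the 34 passed both thresholds, beside 5.12% of all genes higher and 8.86% lower. The genes named here were chosen after their values were seen. The ribosomal proteins RPL5 and RPL11, which can bind MDM2, rose from 836.3 ± 18.5 to 1228 ± 123 CPM and from 599.0 ± 8.26 to 862.9 ± 65.0 CPM (SD, n = 3 each), and the nucleolar protein NPM1 rose from 1296 ± 22.0 to 1750 ± 95.8 CPM (SD, n = 3 each). The log2 fold changes were 0.55, 0.53 and 0.43, and they were 0.24, 0.21 and 0.12 with library size alone, each still past the threshold. SIRT1, a deacetylase of p53, rose by 0.66 on the log2 scale, and PPP1R13L (iASPP), an inhibitor of p53, by 0.62. KMT5A, which methylates p53, rose by 0.61 on the log2 scale. The damage kinase ATR had a log2 fold change of -0.77, the acetyltransferase EP300 -0.52 and the methyltransferase SETD7 -0.59. The checkpoint kinases CHEK1 (0.44) and CHEK2 (0.28) were higher on the log2 scale with TMM, but with library size alone CHEK1 (0.13) did not pass and CHEK2 (-0.04) turned.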
